A study of Mus musculus with 2 samples.

Results

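The 10 genes described here are transcription factors of blood stem and progenitor cells. They are the homeobox genes Hoxa7, Hoxa9 and Hoxa10, their cofactor Meis1, and Sox4, Mecom (the Mds1 and Evi1 locus), Myb, Erg, Hhex and Hlf. They were found as the gene probes that the array annotation gives these names (Evi1 for Mecom included), 16 probes of the 55659 analysed, which carry 34732 gene or locus names. RNA of cultured mouse mast cells had been put on 2 one-colour arrays, 1 for cells transfected with a control siRNA and 1 for cells transfected with an siRNA against GATA1, each at 200 pmol. The cells of both groups came from C57BL/6 marrow and were grown for 2 weeks in interleukin 3 at 10 ng/mL and for 2 more weeks in interleukin 3 and stem cell factor at 10 ng/mL. Each array carried a pool of 2 animals, so every value here comes from 1 array, nothing was replicated, no test could be run, and having so few arrays sets the precision. The siRNA sequence and the time between transfection and harvest are not given in the sources used here.

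GATA1 is a zinc finger factor that erythroid, megakaryocytic, eosinophil and mast cells use as they mature. The factors described here act earlier: HOXA proteins bind DNA together with MEIS and PBX partners to keep progenitors dividing, MYB and ERG sustain stem and progenitor programmes, and most of these genes are turned down as blood cells mature. Several are also known as leukaemia genes, because their forced expression blocks maturation. The comparison asks how the transcripts of these progenitor factors stand in mast cells when GATA1 is knocked down.

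The scanner software called 10 of the 16 probes well above background on both arrays and the other 6 on neither. The 10 belong to 8 genes, and Hoxa10 and Mecom had no probe above background. The same held on both arrays for 51.6% of the 55659 probes. On the scale used here, log2 of the signal divided by each array's 75th percentile, 9 of the 10 measured probes were higher with GATA1 siRNA, by 0.08 to 0.93, and 1 of the 2 Hoxa9 probes was lower by 0.06. Their median difference was 0.34, against 0.01 over all 28736 measured probes, of which 52.2% were above 0. None of the 10 reached 2-fold in either direction, a size that 0.95% of all measured probes reached. A Sox4 probe was the single one at least 1.5-fold higher, as were 1.92% of all measured probes, and 0 were 1.5-fold lower, against 3.19% (5.11% for both directions together). With quantile normalization, loess or the authors' table the first count became 2, Hoxa7 being the second, at 0.59, 0.68 and 0.61. At 1.25-fold, a size chosen after the values were seen, 6 of the 10 were higher and 0 lower, against 7.59% and 10.4% of all measured probes. Sox4 and Erg each enter these counts with 2 probes. By gene, 4 of the 8 were higher and 0 lower at that size, against 1488 and 1941 of 20399 measured genes. The gene median was 0.28, against 0.01 over all measured genes. The 10 genes were picked with earlier results of these arrays known, so these counts describe them and support nothing.

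**Figure D1:**
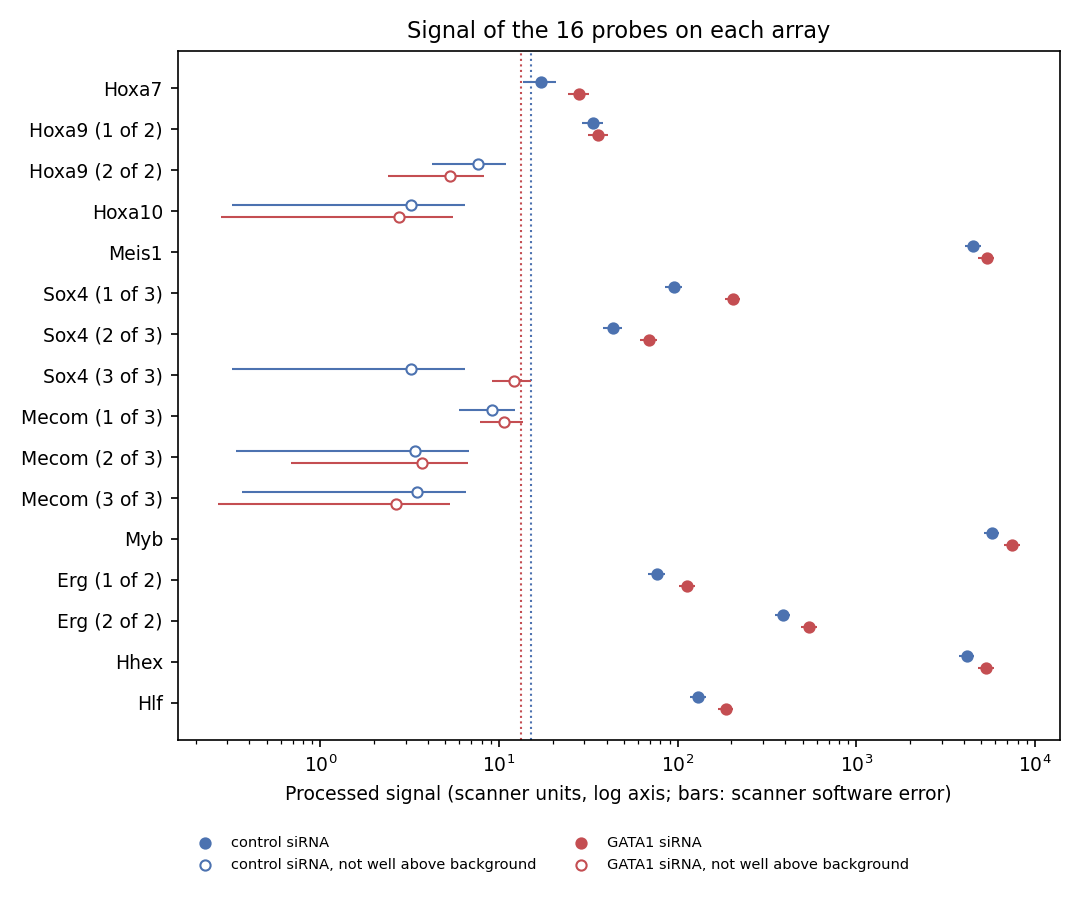
Processed signal of each of the 16 probes (scanner units, log axis) on the control siRNA array and the GATA1 siRNA array, numbered within a gene by position. Bars are the scanner software's error, shortened at the left where they would reach zero, and dotted lines mark the lowest signal called well above background (15.2 for control siRNA, 13.3 for GATA1 siRNA). Filled points, 10 probes, were above background on both arrays, and open points, 6 probes, on neither. Levels of different probes are not comparable.

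The knockdown itself was visible. The Gata1 probe had a signal of 16415 with control siRNA and 3930 with GATA1 siRNA, 4.68-fold lower after scaling (log2 difference -2.23). All 14 genes of the mast cell list were measured, as were all 9 of the eosinophil list and all 7 of the basophil list. Of the 34732 gene or locus names, 20399 were measured. Kit, the receptor for stem cell factor, differed by 0.035 (-0.0068 to 0.096 over the scalings). Of the 14 mast cell genes, 4 stood above 0, Kit included, and the tryptase Tpsab1 was lowest at -2.11. Over all probes 52.7% were above background with control siRNA and 55.2% with GATA1 siRNA, and none was saturated. The precision of a difference depends on brightness. Among probes printed many times the median SD of the difference between spots was 0.28 in the dimmest of 4 level classes, then 0.12, 0.06 and 0.03 in the brightest, and the central 95% of all differences ran from -0.82 to 0.66 in the dimmest class and from -0.30 to 0.37 in the brightest. Such errors say nothing of the spread between animals or cultures. All 16 probes were printed once, so each difference is given with the error that the scanner software reports. For Meis1, Myb and Hhex that error was 0.10 of the signal on both arrays, or 0.20 in log2. Whether a difference exceeds the scanner error is therefore not a comparison with the spread of repeated spots.

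Sox4, an HMG box factor that is active in progenitors and in early lymphocytes, showed the largest difference of the group. Its 3 probes lie on chromosome 13 (build mm9, from the array annotation) within 3716 bases, and their first 30 of 60 bases are shown because the probes did not give the same result. They are listed from the lowest coordinate to the highest, and since the gene is on the minus strand the last of them lies nearest to the start of the transcript.
Sox4 probe A_55_P2121608, chr13:29040826-29040885, minus strand: aatcctgtccgtcactgcctgtcaggttgt
Sox4 probe A_55_P2121613, chr13:29042856-29042915, minus strand: ttttctgcaatgaagacagaaagaaggctc
Sox4 probe A_55_P2131899, chr13:29044482-29044541, minus strand: tcaagcacatggctgactaccctgactaca

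The probe at the lowest coordinate had a signal of 95.3 with control siRNA and 203.5 with GATA1 siRNA. This is a log2 difference of 0.93 with a scanner error of 0.21, or 1.90-fold, and it ranked 124 from the highest among the 28736 measured probes. The middle Sox4 probe had signals of 43.5 and 69.1, a difference of 0.50 with a scanner error of 0.24. Both were higher with GATA1 siRNA, by amounts 0.43 apart, and both differences exceeded their scanner error. Of the 10 measured probes described here, the first Sox4 probe was the single one outside the central 95% of its own level class (-0.57 to 0.54), and the middle probe lay inside that of the dimmest class. The third Sox4 probe was not well above background on either array (signals of 3.20 and 12.1) and gives no difference. The mean over the measured Sox4 probes was 0.72, or 1.64-fold. With normexp background correction, which adds an offset of 50 to every signal and so draws dim probes towards 0, the 2 measured Sox4 probes stood at 0.66 and 0.18.

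The homeobox genes of the Hoxa cluster are expressed by position, and the members described here are among those of myeloid progenitors. The stretch examined, from Hoxa2 to Evx1 on chromosome 6, spans 155763 bases in mm9 and holds 21 probes. Of these, 2 were above background, 1 for Hoxa7 and 1 for Hoxa9, and the same 2 on both arrays. The other 19 probes were above background on neither array, among them those of Hoxa10, of Hoxa2 to Hoxa6, of Hoxa11 and Hoxa13 and of the noncoding RNA Hottip. The probes of Hoxa7, Hoxa9 and Hoxa10, with the first 30 of 60 bases, are given next, to show which parts of this stretch were and were not seen.
Hoxa7 probe A_51_P509263, chr6:52165626-52165685, minus strand: gacagttggaaaagcgtctttaagagactc
Hoxa9 probe A_55_P1979768, chr6:52174165-52174224, minus strand: taaaaagagagcaagctagaaagaaaaaga
Hoxa9 probe A_55_P2066103, chr6:52175595-52175654, minus strand: tttgtccctgactgactatgcttgtggttc
Hoxa10 probe A_55_P2164348, chr6:52181922-52181981, minus strand: tcttttcttccttggccaagagcagagtat

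Hoxa7 had a signal of 17.2 with a scanner error of 3.56 with control siRNA and 28.1 with an error of 3.89 with GATA1 siRNA. The log2 difference was 0.54 with an error of 0.36, or 1.46-fold, and it lay inside the central 95% of the dimmest class. The control siRNA signal sat just above the lowest signal called well above background there (15.2), so Hoxa7 is seen close to the limit of detection. With normexp the difference was 0.08. Hoxa9, the homeobox gene best known from myeloid leukaemia, stood at 33.5 and 36.0 at its measured probe, a difference of -0.06 with an error of 0.27. Its sign depends on the scaling: it was 0.033 with loess. The other Hoxa9 probe, 1.43 kb further along, had signals of 7.58 and 5.30, above background on neither array. Hoxa10 had signals of 3.20 and 2.76 and was not detectable on either array. Hoxa7 and Hoxa9 thus lie 8.54 kb apart at their measured probes, the first 0.54 higher and the second 0.06 lower, both within the spread of dim probes. With 1 array per group, whether they differ from each other was not tested.

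**Figure D2:**
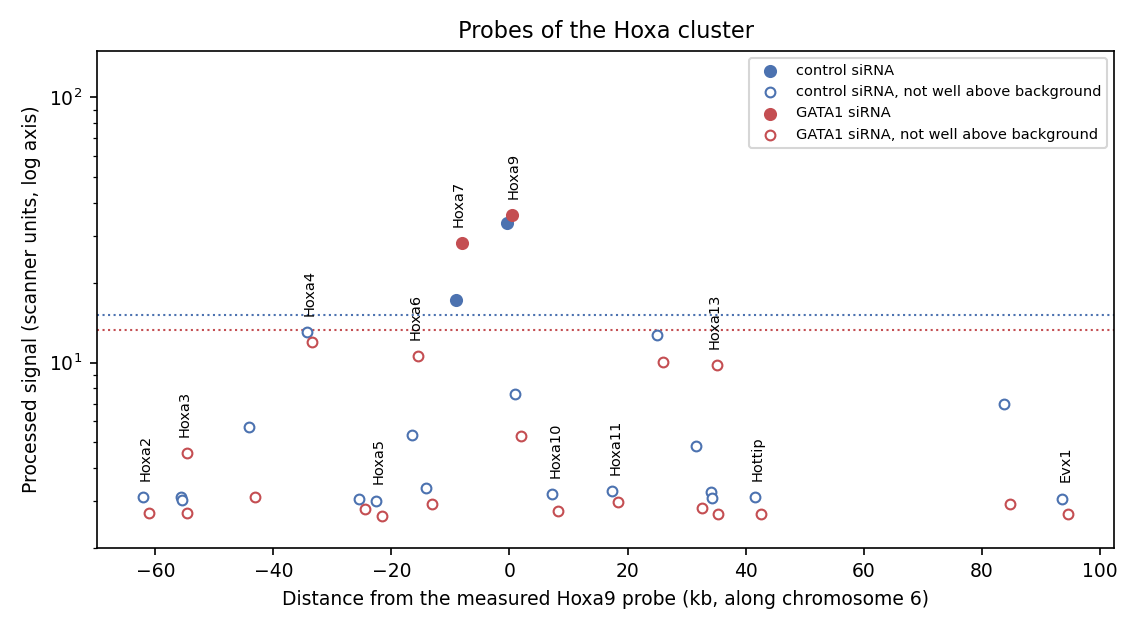
Processed signal (scanner units, log axis) of the 21 probes of the Hoxa cluster from Hoxa2 to Evx1 against distance from the measured Hoxa9 probe (kb), for the control siRNA and the GATA1 siRNA array. Only the Hoxa7 and Hoxa9 probes (filled) pass the dotted lines, the lowest signals called well above background on each array, and the other points are open.

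Among the other Hox clusters, Hoxb, Hoxc and Hoxd, 3 of 28 listed genes were measured and 22 were above background on neither array. All 3 stood above 0 on the reported scale: Hoxb3 at 0.62 (signals of 22.5 and 38.8), Hoxc6 at 0.07 and Hoxb4, a homeobox gene of stem cells, at 0.05. Hoxb3 ranged from 0.14 to 0.73 over the scalings and was at least 1.5-fold higher as reported, as were 1.83% of all measured genes, and Hoxc6 ranged from -0.11 to 0.17. The list median was 0.07 and ranged from 0.04 to 0.17 over the scalings.

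Meis1, the cofactor that binds DNA beside HOXA9, was bright, with a signal of 4504 with control siRNA and 5354 with GATA1 siRNA. After scaling its difference was 0.08, smaller than the scanner error of 0.20, and from 0.02 to 0.15 over the scalings. That error is 0.10 of the signal on each array, whereas repeated spots of the brightest class had a median SD of 0.03. Its probe lies on the minus strand of chromosome 11 at 18780695 to 18780754 (mm9). The other homeobox partners of its class (TALE, named for a loop in the homeodomain) were largely measured, 9 of 10, with Pknox2 above background on neither array. Their median was 0.09 (0.07 to 0.16 over the scalings), with 5 of 9 above 0. Meis2, the closest relative of Meis1, stood at -0.69 (signals of 654 and 455), the repressor Tgif1 at 0.65 (1104 and 1947), Pbx4 at -0.27 and Pbx2 at 0.23. Tgif1 was the only one at least 1.5-fold higher and Meis2 the only one at least 1.5-fold lower, against 1.83% and 2.76% of the 20399 measured genes, and none reached 2-fold.

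Myb, a factor that immature blood cells need to divide, had signals of 5746 and 7456. Its difference was 0.21 with an error of 0.20, or 1.16-fold, and 0.15 to 0.27 over the scalings. The Myb probe lies on the minus strand of chromosome 10 at 20844736 to 20844795 (mm9). Of 12 listed genes linked to MYB, 11 were measured and 10 stood above 0, with a median of 0.18 (0.16 to 0.24 over the scalings), against 52.7% of all measured genes above 0. None of them reached 1.5-fold. The largest were the granule enzymes Mpo at 0.40 and Elane at 0.33, which are also neutrophil genes, then the adenosine receptor Adora2b at 0.28 and the cyclin Ccne1 at 0.26.

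Erg, an ETS factor of stem cells and of the endothelium, was measured by 2 probes that lie within 203 bases on chromosome 16. One had signals of 76.3 and 113.4, a difference of 0.41 with an error of 0.22. The other had signals of 388.2 and 545.7, a difference of 0.33 with an error of 0.20. Both Erg probes were higher with GATA1 siRNA by similar amounts, 0.08 apart, and the gene stood at 0.37, or 1.29-fold. Both lay inside the central 95% of their level classes. The lowest values over the scalings were 0.23 and 0.29.

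Hlf, a PAR bZIP factor of quiescent stem cells, had signals of 130.1 and 185.9 at its probe on the minus strand of chromosome 11 (90200696 to 90200755, mm9). The difference was 0.35 with an error of 0.21, or 1.27-fold, and 0.22 to 0.41 over the scalings. Hhex, a homeobox gene of early blood and endothelial development, had signals of 4166 and 5333 on the plus strand of chromosome 19 (37514969 to 37515028, mm9). Its difference of 0.19 was smaller than its error of 0.20, and it ranged from 0.13 to 0.25 over the scalings. Meis1, Myb and Hhex fall in the brightest level class, in which 68.6% of all probes stood above 0 and the class median was 0.06.

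Mecom, which encodes the zinc finger factor EVI1 and its longer form with the MDS1 start, was not detectable. Its 3 probes span 569540 bases of chromosome 3, and the first 30 of 60 bases are shown because they lie far apart along the locus and none was seen.
Mecom probe A_51_P482148, chr3:29876185-29876244, minus strand: cccgcttgaagctttgaaagaaaaatactt
Mecom probe A_55_P2111172, chr3:30135491-30135550, minus strand: gttttgtccctggacacatccttgggaagg
Mecom probe A_55_P1981639, chr3:30445665-30445724, minus strand: ataaaatgtgcaggtgtgacggacgacttt

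The 3 Mecom probes had signals of 9.07, 3.37 and 3.47 with control siRNA and 10.7, 3.68 and 2.66 with GATA1 siRNA. None was called well above background on either array, so no fold is given. Other probes stand around the Mecom probes: 40 lay within 100 kb of a Mecom probe, 35 of them for noncoding loci. Of the 40, 9 were measured, with a median difference of -0.19, a range of -0.80 to 0.10, and 2 above 0. The lowest was a minus-strand noncoding probe at 30124843 to 30124902 on chromosome 3, 10589 bases from a Mecom probe, with signals of 70.3 and 45.2. Another probe of that locus and strand, at 30125036 to 30125095, had signals of 230.2 and 272.6 and stood at 0.08.

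**Figure D3:**
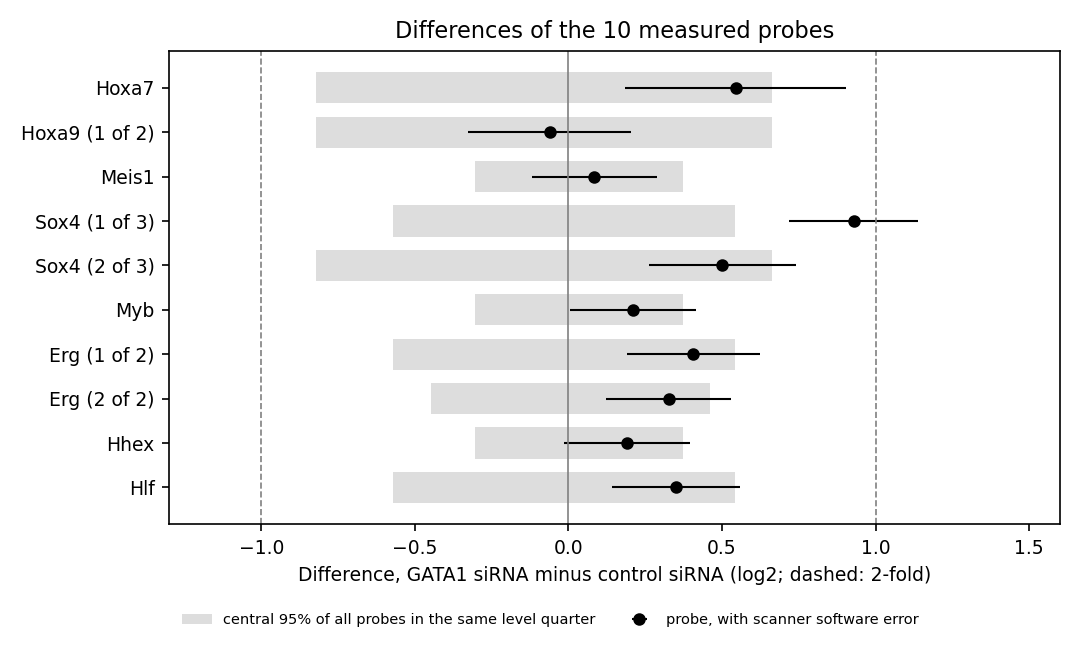
Difference of the 10 measured probes (GATA1 siRNA minus control siRNA, log2) with the scanner software's error as bars. Grey bands give the central 95% of all measured probes in the same level class, and dashed lines mark 2-fold. The first Sox4 probe, at 0.93, is the single point beyond its band, and no point passes 2-fold.

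Detection within 100 kb of the measured members varied by locus, from no probe around Hoxa7 and Hoxa9 to all 4 around Hhex. Of all probes, 51.6% were measured. Around Sox4, 15 other probes were found and 4 were measured, 3 of them below 0 and 1 at 2.31. The last, of a plus-strand noncoding locus at 29115533 to 29115592 and 70992 bases from a Sox4 probe, had signals of 16.1 and 89.7, but it sits at a spot of the slide whose neighbours differ 4-fold or more between the arrays. None of the 10 measured member probes sits at such a spot. Around Meis1, 1 of 4 probes was measured, a minus-strand noncoding probe 26675 bases away at -0.74, with signals of 20.6 and 13.8. Around Hhex, all 4 were measured, from -0.08 to 0.33, with the mitotic kinesin Kif11 highest. Around Hlf, 5 of 6 were measured, including 3 probes of Mmd, which encodes a membrane protein of monocytes and macrophages, at 0.22, 0.27 and 0.28. The other 2 were below 0, an unnamed probe at -0.47 (signals of 304.5 and 246.6) and AK036131 at -0.06. The measured neighbour of Myb, Ahi1, stood at 0.03, and that of Erg, the potassium channel gene Kcnj15, at 0.19. No neighbour of the Hoxa probes was measured.

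Because GATA1 binds DNA at GATA sites, the 250 bases before each start site were searched for them, using RefSeq sequences of assembly GRCm38.p6, which is not the build of the probe coordinates. A site was any of the words AGATAA, or AGATAG, or else TGATAA, or finally TGATAG, on either strand, and the table held 14 start sites of the 10 genes. A GATA site was present at 5 of the 14, against 26.5% of 32851 start sites of all genes. The 5 belong to Hoxa7, Hoxa9, Mecom (both of its start sites) and Erg (1 of 3). Sox4, Meis1, Myb, Hhex, Hlf and Hoxa10 had none in this window. The upstream sequences of Hoxa7 and Hoxa9, which hold a site, are printed beside those of Sox4, which had the largest difference, and of the start site of Erg that holds a site. Capitals mark the GATA sites.
Hoxa7 upstream, chr6:52218574-52218823, minus strand: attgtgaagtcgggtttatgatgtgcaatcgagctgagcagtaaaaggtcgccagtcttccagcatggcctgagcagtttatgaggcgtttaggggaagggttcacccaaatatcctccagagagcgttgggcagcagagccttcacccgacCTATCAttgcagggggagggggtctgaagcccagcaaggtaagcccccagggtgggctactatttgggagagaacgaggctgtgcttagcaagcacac
Hoxa9 upstream, chr6:52227371-52227620, minus strand: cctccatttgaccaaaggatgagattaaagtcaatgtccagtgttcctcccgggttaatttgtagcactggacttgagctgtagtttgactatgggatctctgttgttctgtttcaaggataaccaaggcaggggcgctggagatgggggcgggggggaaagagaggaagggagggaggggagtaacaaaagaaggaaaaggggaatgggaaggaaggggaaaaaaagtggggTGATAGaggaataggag
Sox4 upstream, chr13:28953700-28953949, minus strand: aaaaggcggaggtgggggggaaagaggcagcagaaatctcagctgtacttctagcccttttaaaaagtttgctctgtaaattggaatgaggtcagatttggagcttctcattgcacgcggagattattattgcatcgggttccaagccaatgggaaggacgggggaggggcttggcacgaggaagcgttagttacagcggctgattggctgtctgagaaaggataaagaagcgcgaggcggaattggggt
Erg upstream, chr16:95459349-95459598, minus strand: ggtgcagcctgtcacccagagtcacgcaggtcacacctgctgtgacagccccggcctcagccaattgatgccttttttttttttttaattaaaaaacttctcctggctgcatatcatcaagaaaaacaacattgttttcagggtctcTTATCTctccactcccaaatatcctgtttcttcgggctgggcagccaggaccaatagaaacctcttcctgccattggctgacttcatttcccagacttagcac

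The site begins 98 bases before the start in Hoxa7, 17 in Hoxa9 and 103 in Erg. The genes with a site had differences of 0.54 (Hoxa7), -0.06 (Hoxa9) and 0.37 (Erg), or were not detectable (Mecom). Of those without one, Sox4 stood at 0.72, Hlf at 0.35, Myb at 0.21, Hhex at 0.19 and Meis1 at 0.08. Hoxa10, also without one, was not detectable. Whether a site goes with a difference was not tested. A match is only a string of letters, and binding was not measured. The letters TGACAG, bound by MEIS proteins, were found at 2 of the 14 start sites (Erg and Mecom; 15.9% of all), and CCGGAAGT, bound by ETS proteins, at 1 (Meis1; 2.88% of all). The PBX-HOX letters TGATTNAT and the MYB letters AACNGTT were at none of the 14, against 2.82% and 3.8% of all start sites.

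Regulators of Hoxa chromatin, such as the methyltransferase Kmt2a and the polycomb proteins, were all measured (18 of 18). Their median was 0.02 (-0.01 to 0.08 over the scalings, so the sign is not fixed), 13 stood above 0, and Kmt2a stood at -0.25. The largest were the elongation factor Mllt3 at -0.60, whose 2 probes gave -0.96 and -0.23, the polycomb genes Cbx7 at -0.43 and Cbx2 at 0.42, and the demethylase Kdm6b at -0.40. Genes linked to HOXA9 and MEIS1 had a median of -0.02 over 10 measured of 12 (-0.04 to 0.05 over the scalings), with Camk2d at 0.57 (probes at 0.24 and 0.91, and 0.14 to 0.65 over the scalings), the T cell leukaemia gene Lmo2 at 0.49, the surface sialomucin Cd34 at 0.46 and Trib2 at -0.46. Of the 48 genes on the array that were listed as other progenitor transcription factors, 37 were measured. Of these, 17 stood above 0, with a median of -0.03 (-0.06 to 0.03 over the scalings). Hes1, the Notch target, stood lowest at -0.84 (signals of 63.5 and 39.7, and -0.87 to -0.43 over the scalings). Lmo2 stood highest at 0.49 and Egr1 at 0.41, and Mllt3 is in this list as well. None of these lists had a gene at 2-fold, a size reached upward by 0.294% and downward by 0.608% of all measured genes. No gene of these lists was at least 1.5-fold higher, against 1.83% of all measured genes. At least 1.5-fold lower were 1 of the 18 chromatin regulators (Mllt3) and 2 of the 37 other factors (Hes1 and Mllt3), against 2.76%.

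Markers of other cell types are given beside these values. Summed signals add every measured probe of a list, so bright probes and genes with several probes weigh most. They are not amounts of RNA of a cell type. Bulk RNA cannot separate fewer cells of a type from less RNA per cell. Of 14 neutrophil markers 13 were measured (not Retnlg), 12 above 0, with a median of 0.50 and a summed scaled signal of 203.2 with control siRNA and 227.6 with GATA1 siRNA. Lactoferrin (Ltf) stood at 0.79, Ngp at 0.75, Camp at 0.67 and S100a8 at 0.61, and the protease gene Ctsg was the one below 0, at -0.37. Of 13 macrophage and monocyte markers 10 were measured (C1qa and Cd163 were above background on neither array), 8 above 0, with a median of 0.40 and sums of 44.6 and 74.6. Ms4a7 stood at 1.09, Cd68 at 1.07, Csf1r at 0.019 (-0.0047 to 0.080 over the scalings), C1qb at -0.10 and Fcgr1 at -0.39. Dendritic cell markers had a median of 0.42 over 8 of 9 (Xcr1 not detected), while their sums, 324.5 and 291.2, went the other way. The 2 probes of Siglech, the brightest of them, disagreed (-0.19 and 0.33). Progenitor surface markers had a median of 0.09 over 8 of 14, with sums of 522.2 and 656.0. Procr stood at 0.57, Cd34 at 0.46, Ly6a at 0.41 and the cytokine receptor Flt3 at -0.18, and Slamf1, Esam and Robo4 were above background on neither array. The part of these cells in the differences of the 10 genes was not tested.

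Mast cell markers had a median of -0.10 over 14 (-0.15 to -0.04 over the scalings), with 4 above 0, sums of 4157 and 3688 and the tryptase Tpsab1 lowest at -2.11. Eosinophil markers had a median of -0.48 over 9 (-0.51 to -0.23 over the scalings), 2 above 0, and sums of 35.1 and 26.5. Epx stood at -0.85. Siglecf stood at 0.60 but was dim (signals of 18.9 and 32.2) and ran from 0.07 to 0.72 over the scalings. Basophil markers had a median of 0.24 over 7 (0.13 to 0.30 over the scalings; sums of 260.0 and 290.0). Erythroid markers had a median of 0.26 over 4 of 9 on the array (0.09 to 0.32 over the scalings), with the globin gene Hba-a2 at 1.0 (signals of 546.1 and 1225), Epor at -1.58 and Klf1 and Alas2 above background on neither array. Megakaryocyte markers had a median of 0.00052 over 8 (-0.03 to 0.06 over the scalings), lymphocyte markers of -0.05 over 5 of 10 (-0.08 to 0.04; Pax5 not detected), and stromal markers of -0.05 over 4 of 8 (-0.09 to 0.01; Col1a1 and Cdh5 not detected).

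**Figure D4:**
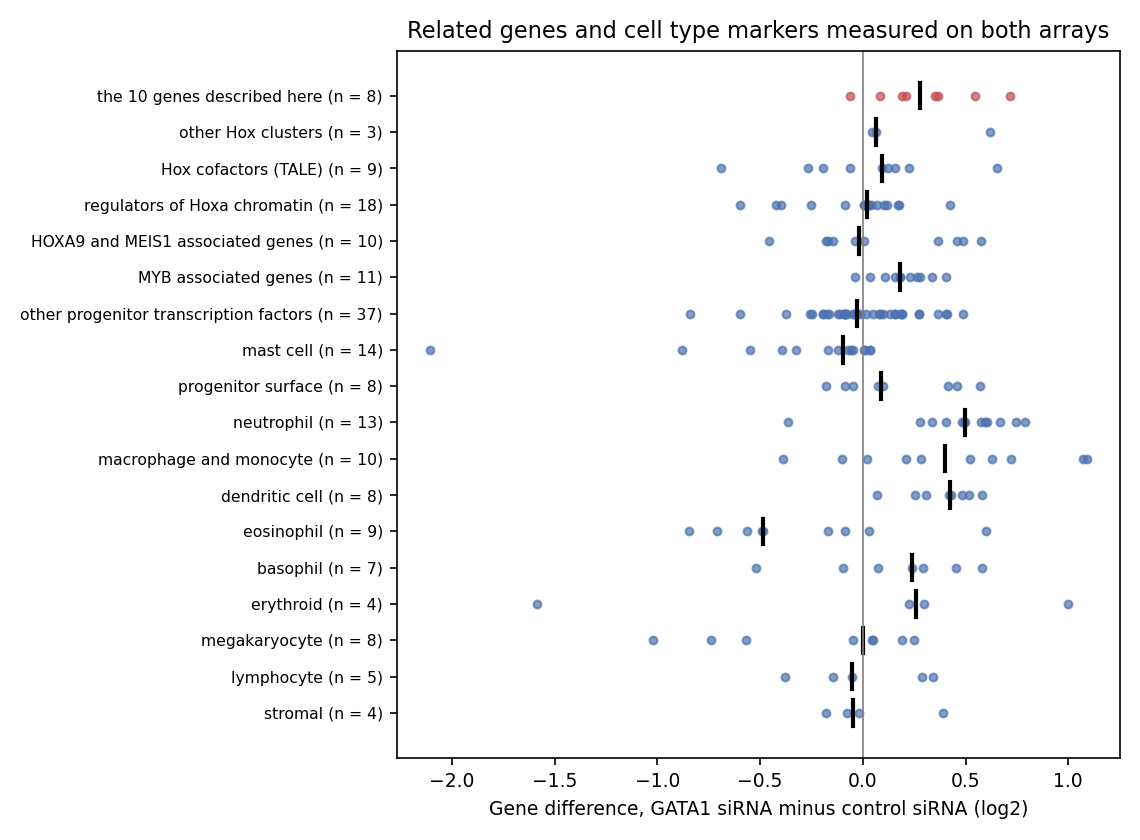
Gene differences (GATA1 siRNA minus control siRNA, log2) for the 8 measured genes of the 10 described here (red) and for the measured members of each related list and marker list (blue, n in brackets). Each point is a gene and black bars are medians. The median of the 8 genes is 0.28, against 0.50 for neutrophil markers and -0.10 for mast cell markers.

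**Figure D5:**
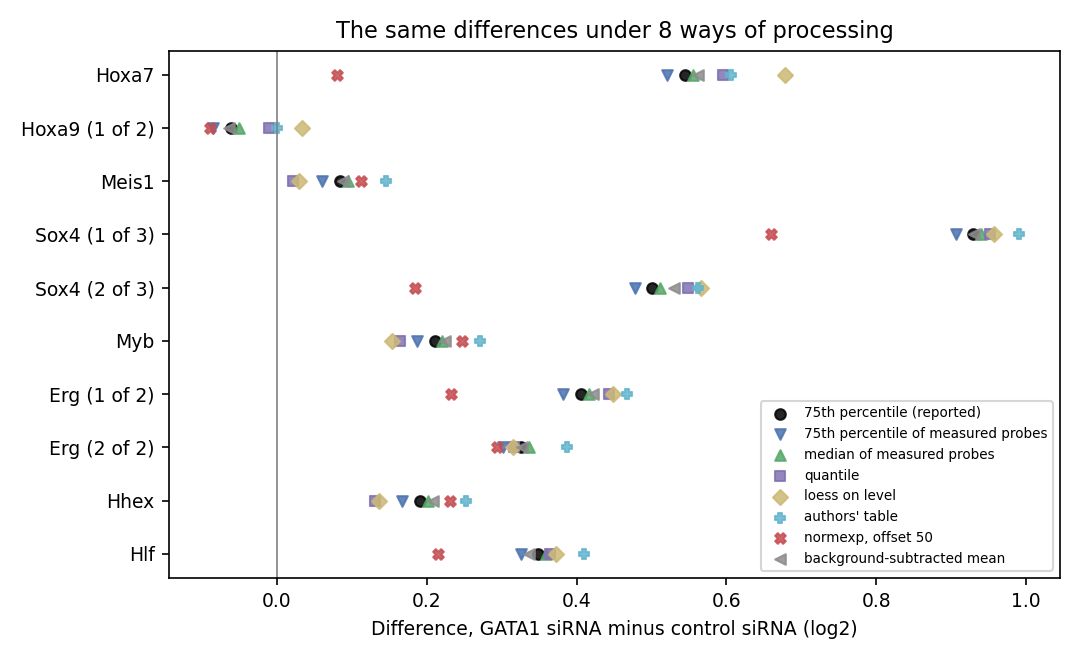
Difference of the 10 measured probes (GATA1 siRNA minus control siRNA, log2) under 8 ways of scaling or background correction. The first Sox4 probe stays between 0.66 and 0.99, Hoxa7 runs from 0.08 (normexp) to 0.68 (loess), and the Hoxa9 probe crosses 0.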

How the data were processed

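Total RNA of each siRNA group was hybridised to its own Agilent Cy3 array, 2 in all, both on 1 slide per the file headers. The deposited intensity values come from Feature Extraction 10.7.3.1, per the file headers: background-subtracted and detrended, dim spots replaced by surrogates, no scaling between arrays. A deposited table of scaled intensity served as an alternative. Its columns matched the processed signals divided by 1 constant per array, and how it was made is not stated.

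Outlier spots (117 and 133) were left out, repeated spots averaged on the log2 scale, and each array divided by its 75th percentile (303.2 and 340.0). Measured probes are those with the above-background call and no saturation on either array. A gene is the mean of its measured probes. Sizes of 2-fold and 1.5-fold replaced a test. Level classes divide the measured probes by mean level into 4 groups of 7184. Names came from a RefSeq table (GRCm38.p6) by accession (27225 probes) or symbol (4145), else from the array (24289). Named genes are all 10 members, the 4 largest differences of each related list, and neighbours within 100 kb; other names, the markers beside them included, were chosen after their values were seen. Scaling was tested on simulated data. Alternatives used limma 3.58.1 in R 4.3.3 and Python 3.11.15. The members and lists were chosen with earlier results of these data known. Some genes of the lists are not reported here.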

Additional observations from a re-analysis of the deposited data

How the results depend on the processing

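The median difference of the measured probes kept its sign under all 11 alternatives tried, from 0.20 without a filter on dim probes and 0.22 with normexp to 0.40 with the authors' table. The count of probes past 2-fold was 0, and it became 1 without the filter on dim probes (the third Sox4 probe, whose control signal is a surrogate), 1 at 1.5-fold (2 with quantile, loess or the authors' table) and 6 at 1.25-fold, a rule added after the values were seen. Probes counted as measured went from 10 to 16 without the filter and to 7 with only the brighter probes. The Hoxa9 difference turned to 0.033 with loess. Normexp lowered Hoxa7 to 0.08 and the Sox4 probes to 0.66 and 0.18, since its offset of 50 is large beside dim signals. Other scalings changed how all 2-fold calls split: 35.5% of them were higher as reported, 45.5% with the authors' table, 44.4% with loess and 31% with the percentile over measured probes. Hoxa7, Hoxa9 and the middle Sox4 probe lie in the dimmest level class, where signal over background limits what can be seen. No paired analysis was possible because each group is 1 array, and no replicate could be left out.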
